A study of Mus musculus with 12 samples.

Results

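Macrophages grown from mouse bone marrow were compared after 24 h with plasminogen that had been exposed to 6-aminohexanoic acid (PLG+EACA) and after no treatment. The comparison took 4 libraries of each kind, 8 of the 12 samples of the series, chosen by the treatment in their labels. The marrow cells had been differentiated with GM-CSF at 50 ng/mL for 7 days in both groups, and total RNA was sequenced from directional libraries. The third group, which received plasminogen exposed to EACA and also to RNases (PLG+EACA+RNase, 4 libraries), is used only beside the leading genes. Strain, sex, age and the source of the plasminogen are not given in the labels, and nothing there ties a library to an animal or a culture of its own. The p-values therefore measure the spread between these libraries, which may be technical. The labels name no group that received EACA alone or plasminogen alone, so the part of each in a difference from untreated cells cannot be told apart.

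Plasminogen is the circulating precursor of plasmin, the protease that dissolves fibrin. Its kringle domains bind lysine residues on cell surfaces and fibrin, and EACA, a lysine analogue, occupies those binding sites. Macrophages detect foreign or misplaced RNA with Toll-like receptors in endosomes and with helicases in the cytosol, and bacterial products with Toll-like receptors at the surface. These sensors lead to NF-kB, which drives cytokine genes, and to interferon regulatory factors, which drive interferon beta. Secreted interferon then acts back on the cells through transcription factors that bind a promoter element called the ISRE in antiviral genes. Cells grown from marrow with GM-CSF are known to include macrophages and cells with dendritic features.

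Values are FPKM (fragments per length of gene and per library total) that were scaled between the 8 libraries by the median of ratios. A gene was tested where at least 4 of these libraries reached 1 scaled FPKM, which held for 10596 of 32246 genes. Genes that reached this level in all 4 PLG+EACA libraries and no untreated one could only be called higher. Those named below include Ifnb1, Il10, Il23a, Rnaset2a, Ifi205, Iigp1, Apol9b, Il18, Cxcl9, Hspa1a and Hspa1b. Depth was 14780522 to 22677045 counted reads a library. In a principal component analysis the first axis carried 74.3% of the variance, with the 2 groups at its opposite ends. The second held 7.45% and set PLG+EACA replicate 4 (-22) apart from the other PLG+EACA libraries (5.28 to 11.2). The counts of large changes and of leading genes that differ with RNase exposure are given with and without it. The mitochondrial share of reads was 0.755% ± 0.0553 without treatment and 0.631% ± 0.0758 with PLG+EACA (mean ± SD, n = 4; exact permutation test, two-sided, p = 0.0857; the smallest p this design allows is 0.0286).

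The cells carried the macrophage genes their label calls for. Lyz2, which encodes lysozyme, stood at 4027 to 4372 scaled FPKM in untreated cells and 3587 to 6245 with PLG+EACA. Itgax, which encodes CD11c and marks dendritic cells and many macrophages, stood at 437 to 464 and 376 to 486. Of 11 tested macrophage markers 6 were higher and 3 lower with PLG+EACA, and in the values as deposited 4 and 4. Adgre1, which encodes F4/80, lay at 141 to 178 in untreated cells and was lower with PLG+EACA, at 102 to 141. Marker genes of T, B and NK cells summed to 0.933 to 2.44 scaled FPKM over all 8 libraries, with none of the 14 genes in the table above the level needed for the test. Of 7 tested neutrophil markers none was higher and 2 were lower, the collagenase gene Mmp8 (246 to 315 to 108 to 155) and Csf3r, the G-CSF receptor gene. The other 5 did not pass and had log2 changes of 0.04 (Camp) to 1.05 (Ngp), so that the median of the list was 0.59. The list, whose sum Mmp8 dominates, summed to 284 to 359 in untreated libraries and 163 to 201 with PLG+EACA, while the granule genes Elane and Mpo stayed under 1 in every library and Ly6g at or near 0. Col1a1, a fibroblast collagen gene, stood at 11.8, 7.57, 0.778 and 1.79 in PLG+EACA replicates 1 to 4 and at 6.38, 4.23, 3.89 and 9.9 in untreated replicates 1 to 4. In bulk RNA, fewer cells of a type and less RNA per cell cannot be told apart, and the part of such cells in the results was not tested.

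A majority of the expressed genes differed (55.4%), and the large changes were mostly increases. In limma with Benjamini-Hochberg adjustment over all tested genes, 3094 genes were higher with PLG+EACA (29.2% of those tested) and 2779 lower (26.2%). At least 2-fold changes were 603 increases (5.69%) and 120 decreases (1.13%). At 4-fold there were 155 increases and 1 decrease, that of the cannabinoid receptor gene Cnr2. Fold changes were taken on log2 values after adding a small constant to scaled FPKM, which understates both increases and decreases of low genes. Without that constant, the group means of Cyp1a1 (6.87 to 1.41), Creg2 (3.51 to 0.73) and Kcnj2 (5.69 to 1.37) also fell by more than 4-fold. The count of 4-fold decreases therefore depends on the constant, and 4-fold counts with other constants were not made. At 8-fold there were 41 increases and at 16-fold 11, with no decrease. Without PLG+EACA replicate 4, 470 genes were at least 2-fold higher and 118 lower, 110 at least 4-fold higher and 6 lower, 27 at least 8-fold higher and 8 at least 16-fold higher. All 4 PLG+EACA libraries lay above all 4 untreated ones in 595 of the 603 genes and below them in 117 of the 120. Over all 10596 tested genes they lay above in 3030 and below in 2640. A choice of genes by test and fold favours such separation, so it adds no support. At least 2-fold increases outnumbered decreases in all 4 ranges of expression: among genes with a mean of 1 to 5 scaled FPKM, 184 rose and 67 fell at least 2-fold, and among those at 100 or more, 48 rose and 1 fell.

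The balance of small changes depends on the scaling. Size factors ran from 0.842 to 0.951 with PLG+EACA and from 1.1 to 1.13 in untreated cells. In the values as deposited the median log2 change of all genes was -0.26, against 0.0016 after scaling, and 1617 genes were higher and 5992 lower. Of the genes higher after scaling, 1616 were also higher as deposited, and 88 were lower. No gene that was lower after scaling was higher as deposited. At least 2-fold, 412 genes were higher and 324 lower as deposited. All other changes are given relative to the median gene.

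**Figure D1:**
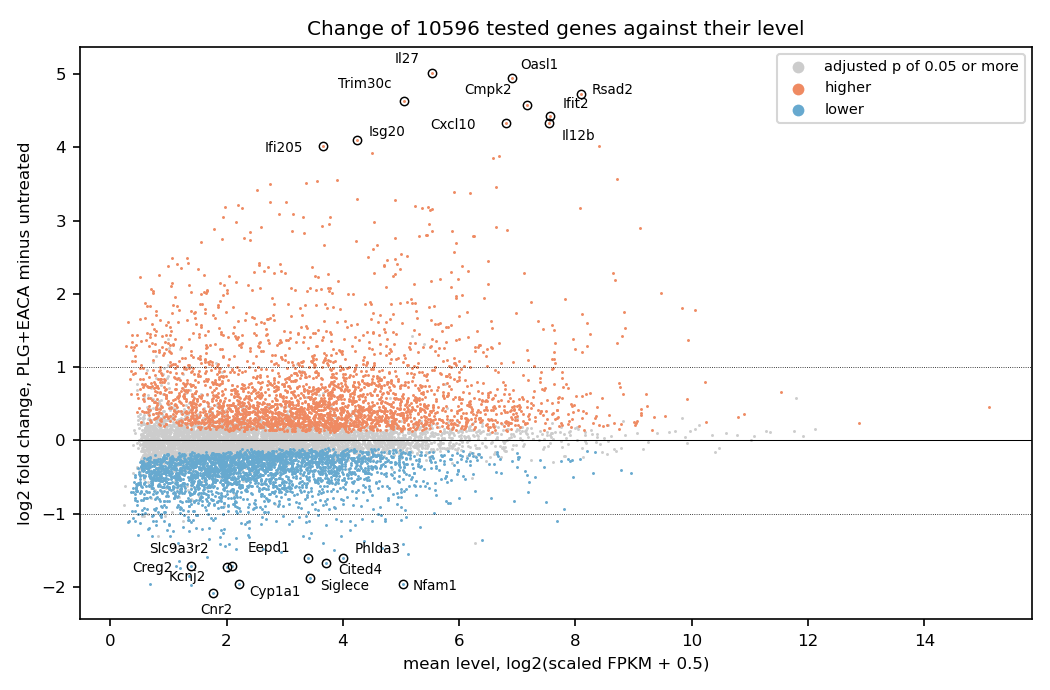
Log2 fold change (PLG+EACA minus untreated) of each tested gene against its mean level, log2(scaled FPKM + 0.5). Orange and blue points passed limma at an adjusted p of 0.05, dotted lines mark 2-fold, and open circles mark the 10 leading genes in each direction. Points above the upper line (603) outnumber those below the lower line (120).

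The leading increases were genes of cytokines, a chemokine and antiviral proteins. Il27 (chr7:126589010-126594941, GRCm38) encodes the p28 subunit of the cytokine IL-27. Its level in untreated replicates 1 to 4 was 2.15, 2.66, 1.53 and 2.43 scaled FPKM, and with PLG+EACA it was 77.7, 74.5, 65.3 and 140.4. The groups did not overlap, and replicate 4 was the highest PLG+EACA library. The log2 fold change was 5.01 ± 0.23 (SE, on log2(scaled FPKM + 0.5); 32.3-fold; limma adjusted p = 1.06e-06). Exons of Il27 overlap Apobr on the opposite strand, and it is not stated if reads were counted by strand.

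Il12b, the p40 subunit shared by IL-12 and IL-23, stood at 17.1, 18.4, 12 and 17.5 in untreated replicates 1 to 4. It stood at 248, 269, 301 and 616 with PLG+EACA, a 20.2-fold increase (limma adjusted p = 3.79e-06). Replicate 4 again held the highest value, far above the next library. Cxcl10, a chemokine that draws T cells through CXCR3, went from 10.2, 9.91, 8.14 and 8.69 to 163, 165, 141 and 381 (20.1-fold), with replicate 4 at 2.44 times the mean of the other PLG+EACA libraries.

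Rsad2 (chr12:26442746-26456452) encodes viperin, a radical-SAM enzyme that makes a chain-terminating nucleotide. It was among the most abundant of the leading transcripts, with 20.7, 25.2, 14.2 and 17.4 in untreated cells and 491, 449, 448 and 727 with PLG+EACA (log2 4.73 ± 0.20 SE; limma adjusted p = 8.11e-07). Its neighbour Cmpk2, a mitochondrial nucleotide kinase, went from 11.6, 14.1, 8.15 and 9.35 to 242, 222, 222 and 414. Oasl1, an OAS-like protein, went from 7.33, 8.84, 5.35 and 6.37 to 204, 188, 210.3 and 331, a 30.9-fold increase; its exons overlap the noncoding gene Gm13822 on the other strand. In each of these 3 genes the groups were far apart, and replicate 4 held the highest value.

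Ifit2, which binds viral RNA, rose from 16.1, 21.3, 11.5 and 15.3 to 316, 303, 274 and 545. Trim30c, a member of the mouse Trim30 family, rose from 2.11, 2.52, 1.39 and 2.33 to 60.7, 56.9, 55.4 and 80.8, with a narrower spread between PLG+EACA libraries. Isg20, an RNA exonuclease, rose from 1.62, 2.29, 1.33 and 0.986 to 30.8, 28.9, 27.3 and 53.6. The DNA-sensor relative Ifi205 was under 1 scaled FPKM in all 4 untreated libraries (0.856, 0.856, 0.945 and 0.762) and stood at 20.1, 14.9, 17.2 and 41.5 with PLG+EACA, so that it moved from near silence to a clear level.

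The leading decreases were smaller and included genes of receptors, a channel and an enzyme. Cnr2, the peripheral cannabinoid receptor, went from 5.13, 4.71, 5.15 and 4.98 in untreated cells to 0.88, 0.992, 0.694 and 0.647 with PLG+EACA (log2 -2.08 ± 0.09 SE; limma adjusted p = 9.18e-07). Nfam1, a receptor with an immune tyrosine activation motif, went from 49.9, 51.7, 52.3 and 51.7 to 11.7, 14.3, 10.8 and 15. Cyp1a1, the classical target of the aryl hydrocarbon receptor, went from 6.78, 6.82, 7.24 and 6.66 to 1.37, 1.5, 1.1 and 1.68. In these 3 genes the PLG+EACA libraries lay far below the untreated ones, and replicate 4 was not set apart.

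Siglece, an inhibitory receptor for sialic acid, fell from 17.9, 17.7, 17.8 and 12.2 to 4.14, 3.28, 6.4 and 3.04. The inward rectifier potassium channel gene Kcnj2 fell from 5.71, 4.88, 6.56 and 5.61 to 1.32, 1.68, 1.36 and 1.15, and the scaffold gene Slc9a3r2 from 5.55, 6.15, 6.62 and 5.83 to 2.02, 1.67, 0.93 and 1.54. The other leading decreases were those of Creg2 (3.26-fold), Cited4, a CBP-binding coactivator (3.2-fold), Eepd1 (3.05-fold) and Phlda3, an inhibitor of Akt (3.03-fold). The groups do not overlap in any of these genes, which the rule that names them asks for.

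**Figure D2:**
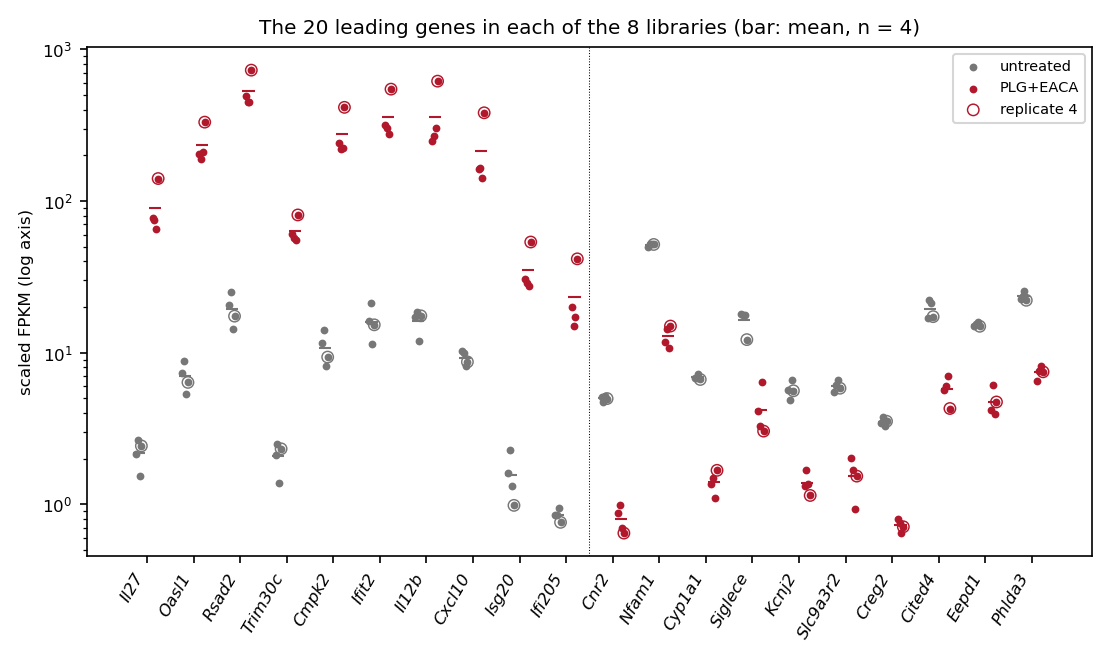
Scaled FPKM (log axis) of the 10 genes with the largest increase (left of the dotted line) and the 10 with the largest decrease (right) in each library; bars are group means (n = 4) and rings mark replicate 4 of each group. The groups do not overlap, which the rule that chose the genes asks for, and among PLG+EACA libraries replicate 4 is the highest for all 10 increased genes.

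No gene with a named symbol fell from a mean of at least 5 scaled FPKM to below 1 with groups apart. Cnr2 came close, at a mean of 4.99 in untreated cells and 0.803 with PLG+EACA. A set of 12 genes with a named symbol made the opposite move, from a mean below 1 to at least 5, with groups apart. By level the first 8 were Ifi205, the immunity-related GTPase genes Tgtp2 and Iigp1, the EGF receptor ligand gene Areg, the guanylate-binding protein gene Gbp4, the inducible HSP70 gene Hspa1b, Heatr9 and the apolipoprotein gene Apol9b. Areg went from 0.669, 0.559, 0.607 and 1.15 to 9.63, 8.4, 11.2 and 17.6. Iigp1 went from 0.58, 0.519, 0.38 and 0.278 to 8.66, 7.49, 6.91 and 17.5, and Apol9b from 0.469, 0.407, 0.381 and 0.534 to 7.25, 7.19, 6.79 and 11.5. Hspa1b went the other way within the group: it stood at 9.52, 8.94, 11.6 and 5.29 with PLG+EACA, lowest in replicate 4, and its near-identical copy Hspa1a did the same (6.56, 6.9, 8.7 and 3.36), so the split of reads between the copies is uncertain.

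Most sensors of RNA and DNA rose, with exceptions among the endosomal receptors. Of 19 tested sensors and adaptors 13 were higher and 3 lower, with a median log2 change of 0.58 beside 0.0016 for all tested genes. Among all tested genes 29.2% were higher and 26.2% lower, and each list count is to be read beside these shares. No list was tested against them. Among the cytosolic RNA helicases, Ifih1, which encodes MDA5, went from 8.7, 9.5, 7.45 and 8.87 to 76.4, 69, 72.9 and 112 (8.95-fold), and Ddx58, which encodes RIG-I, from 8.28, 9.58, 6.21 and 6.92 to 40.8, 39.6, 36.9 and 65.7 (5.52-fold). Their regulator Dhx58 (LGP2) rose 5.86-fold, the nucleic acid sensor Zbp1 5.07-fold and Ifi204, with the largest increase on the list, 9.05-fold. The ligase Trim25, which modifies RIG-I, rose 2.93-fold.

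Among the endosomal receptors, Tlr3, which binds double-stranded RNA, went from 0.804, 1.04, 0.65 and 0.756 to 4.8, 4.16, 3.99 and 9.45. Tlr7, which binds single-stranded RNA, went from 19.9, 17.5, 18.8 and 16.7 to 23.3, 20.4, 22.2 and 31.3, a log2 change of 0.39 (limma adjusted p = 0.0237) that did not pass when 1 of untreated replicates 2 and 4 was left out (adjusted p = 0.0573 to 0.0648) or as deposited (log2 0.10, adjusted p = 0.407). Tlr13, which recognises bacterial ribosomal RNA, fell from 25.1, 23.3, 25.9 and 24.2 to 15.3, 15.9, 15.3 and 21. Tlr13 thus moved opposite to Tlr3; the difference between the receptors was not tested.

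The surface Toll-like receptors and their adaptors changed less. Of 15 tested genes 8 were higher and 2 lower, none by 2-fold, and as deposited the balance turned to 6 higher and 7 lower. The lipopolysaccharide coreceptor gene Cd14 rose from 136, 124, 127 and 124 to 212, 211, 249 and 356. Tlr4 stood at 16.7, 15.9, 16.4 and 15.9 and 15.6, 16.5, 14.6 and 19.7 and did not pass (adjusted p = 0.81), nor did Tlr2 (log2 -0.23, adjusted p = 0.207; adjusted p = 0.000176 without PLG+EACA replicate 4). Tlr1 rose 1.82-fold and Tlr6 1.68-fold. The adaptor gene Ticam2 fell 1.92-fold and Irak3, an inhibitory kinase of the pathway, 1.88-fold; both overlap a neighbouring gene.

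The enzymes that digest nucleic acids were mixed. Of 12 tested genes of nucleases and RNA uptake 4 were higher and 1 lower, beside 29.2% and 26.2% of all tested genes. As deposited 4 were higher and 6 lower, which turns the balance. Samhd1, which removes deoxynucleotides, rose from 24.2, 25.1, 21.8 and 23.7 to 65.2, 63.9, 60.4 and 109. Rnaset2a, one of the mouse copies of the lysosomal ribonuclease T2, went from 0.523, 0.258, 0.402 and 0.452 to 1.1, 1.15, 1.35 and 1.22, and reads of its close copy Rnaset2b may be split with it. The RNA transporter gene Sidt2 did not pass (log2 -0.10, adjusted p = 0.42; adjusted p = 0.00238 without PLG+EACA replicate 4), and Dnase2a, the lysosomal DNase gene, fell 1.29-fold.

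Interferon beta and the factors downstream of its receptor rose, while the receptor genes themselves moved little. Ifnb1 was low in all libraries but apart: 0.597, 0.329, 0.289 and 0.575 in untreated cells and 3.23, 3.34, 3.12 and 4.88 with PLG+EACA (4.36-fold; limma adjusted p = 9.49e-06). The receptor chain Ifnar1 stood at 24.2, 25.6, 25.1 and 24.5 and 21.4, 21.8, 23.1 and 27.2 and did not pass (log2 -0.09; adjusted p = 0.00794 without PLG+EACA replicate 4). Ifnar2 had a log2 change of 0.25 that did not pass when untreated replicate 4 was left out (adjusted p = 0.0505), and had the opposite sign as deposited (-0.03).

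Of 21 tested genes of interferon signalling 15 were higher and 3 lower. Irf7, the regulator that amplifies interferon genes, rose from 11.3, 11.8, 7.74 and 7.97 to 94.1, 89.1, 86.2 and 168 (10.5-fold). Irf1 rose from 22, 24.8, 19.3 and 22.7 to 103, 113, 97.4 and 101, evenly across the 4 libraries. Of the proteins that bind the ISRE, Stat2 rose 3.85-fold and Irf9 1.78-fold. Usp18, which limits signalling at the receptor, rose from 19.7, 24, 15.6 and 14 to 116, 103, 114 and 191. Socs1, another inhibitor, did not pass (40.2, 45.4, 38.9 and 40 and 41, 40.8, 43 and 71.1; adjusted p = 0.316), with replicate 4 alone above the untreated libraries.

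All 35 tested antiviral effectors on the list rose, each at least 2-fold, with log2 changes from 1.18 to 4.95 and a median of 2.80. Isg15, a ubiquitin-like protein, went from 41.4, 50.3, 29.9 and 34.7 to 567, 556, 594 and 839 (16.2-fold). Ifit1 went from 12.9, 14.3, 9.42 and 9.73 to 151, 142, 149.8 and 274. The dynamin-like GTPase genes Mx1 and Mx2, both annotated as polymorphic pseudogenes, rose 6.47-fold and 7.76-fold. The summed level of the effectors was 457 to 619 in untreated libraries and 3707 to 6095 with PLG+EACA.

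The GTPases that attack the vacuoles of intracellular microbes also rose, 15 of 15, with a median log2 change of 2.39. Iigp1 among them passed the filter only through the PLG+EACA libraries, so it could only be called higher. Irgm1, a regulator of the family, rose from 10.3, 10.6, 7.47 and 7.84 to 46.2, 42.3, 43 and 72.8. Igtp rose 6.38-fold and Gbp5 4.93-fold. Gbp2 was already abundant in untreated cells (319.6, 352, 305 and 325) and rose by less than the other 3 named here, to 508, 496, 518 and 658. Several Gbp genes overlap or are near copies of one another, so their single values are less certain than the direction of the group.

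Promoter sequences show the elements that some of these genes carry. The stretches shown are from RefSeq windows on GRCm38.p6, written 5′ to 3′ along each gene's own strand, and hold matches to the ISRE letters GAAANNGAAA on either strand, in capitals. Among the leading increases a match was found only for Rsad2, Cxcl10 and Ifi205, each with one upstream of the start. Oasl1, Ifit2, Trim30c and Isg20 had a window but no match. Of the other genes shown, Isg15, Ifit1 and Irgm1 hold more than 1 match.
Rsad2 (chr12:26456538-26456597, minus strand): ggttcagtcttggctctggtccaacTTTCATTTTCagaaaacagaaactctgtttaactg
Cxcl10 (chr5:92349068-92349127, minus strand): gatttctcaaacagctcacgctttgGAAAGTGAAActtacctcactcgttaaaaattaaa
Ifi205 (chr1:174031855-174031914, minus strand): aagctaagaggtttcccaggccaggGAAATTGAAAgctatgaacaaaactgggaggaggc
Isg15 (chr4:156200850-156200921, minus strand): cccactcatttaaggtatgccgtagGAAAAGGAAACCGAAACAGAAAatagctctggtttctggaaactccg
Ifit1 (chr19:34640760-34640838, plus strand): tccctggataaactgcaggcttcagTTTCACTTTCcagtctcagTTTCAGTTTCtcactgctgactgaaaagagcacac
Irgm1 (chr11:48871421-48871475, minus strand): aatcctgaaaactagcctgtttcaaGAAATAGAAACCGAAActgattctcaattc

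The single match of Rsad2 begins 120 bases before the start, that of Cxcl10 213 bases before it and the upstream match of Ifi205 134 bases before it. Isg15 holds 3 overlapping matches in 1 unbroken run of capitals, and Irgm1 2 overlapping ones close to the start. Ifit1 holds 2 separate matches, in the opposite orientation to those of Isg15. A match is a description of letters and shows no binding.

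Over the windows from 250 bases before to 50 bases after each start, an ISRE match was found for 4.04% of the 7936 tested genes that had a RefSeq window. It was found for 32.4% of 108 genes that rose at least 4-fold, for 12.8% of 304 that rose 2-fold to 4-fold and for 3.41% of 88 that fell at least 2-fold. The AP-1 letters TGANTCA were found for 6.5%, 20.4%, 11.5% and 9.09% of the same sets, and the TATA box letters TATAAA for 8.69%, 22.2%, 13.2% and 13.6%. The kB letters GGGNNTTTCC were rarer, with 2.07%, 4.63%, 4.28% and 2.27%. The GAS letters TTCNNNGAA, another element of interferon responses, were at 8.2%, 8.33%, 11.8% and 7.95% of the same sets. The metal response letters TGCGCNC went the other way (30.5%, 13.9%, 24.3% and 28.4%). The antioxidant letters TGACNNNGC were at 17.5%, 19.4%, 22.7% and 15.9%. The aryl hydrocarbon receptor letters TNGCGTG (9.61%, 5.56%, 8.88% and 5.68%) and the letters CCAAT (42.3%, 38%, 40.5% and 42%) were searched in the same way, on both strands. Several of the genes with an ISRE are neighbours and copies of one another, and these shares are descriptions with no test.

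**Figure D3:**
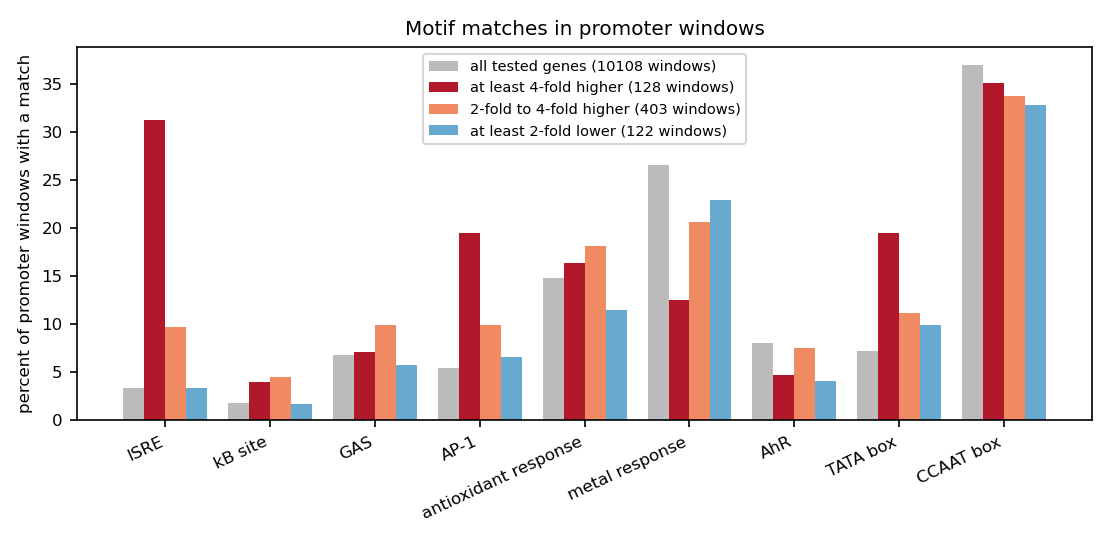
Percent of promoter windows that hold a match to each of 9 motifs, for all tested genes and for 3 sets by size and direction of change; some genes have more than 1 window. ISRE, AP-1 and TATA box matches are at a higher share in genes that rose at least 4-fold, and metal response matches at a lower share.

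After scaling the cytokine genes rose without exception among the 22 tested (22 higher, 20 at least 2-fold, median log2 change 2.01). As deposited 20 of 21 tested were higher. Il10 and Il23a among them passed the filter only through the PLG+EACA libraries, so they could only be called higher. The pyrogen Il6 went from 17.4, 12.7, 14.3 and 18.1 to 150.1, 147, 162 and 267 (11-fold; limma adjusted p = 2.57e-06). Tnf went from 130.5, 146, 131 and 186 to 599, 693, 575 and 837. Il1b was abundant before treatment (267, 257, 269 and 273) and reached 908, 796, 953 and 1927, and the gene of the IL-1 receptor antagonist, Il1rn, rose 3.1-fold. Il15, which sustains NK and memory T cells, rose from 2.57, 2.67, 2.26 and 2.22 to 21.3, 22.1, 21.2 and 32.

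The subunits of the IL-12 family had changes of very different size, which were not tested against each other. Il27 had the largest increase of the leading genes and Il12b was among them, Il12a, the p35 subunit of IL-12, rose 2.76-fold and Il23a, the p19 subunit of IL-23, from 0.38, 0.0273, 0.154 and 0.12 to 2.06, 1.76, 2.03 and 2.86. Ebi3, the partner of p28 in IL-27, was 25.8, 25.3, 27 and 21.5 in untreated cells and 28.8, 26.4, 38.2 and 37.5 with PLG+EACA, a log2 change of 0.37 (adjusted p = 0.0333) that did not pass when 1 of PLG+EACA replicates 3 and 4 and untreated replicates 1, 2 and 4 was left out (adjusted p = 0.0555 to 0.0899) or as deposited (log2 0.09, adjusted p = 0.542). The anti-inflammatory cytokine gene Il10 was near 0 in untreated cells (0.156, 0.0474, 0.0666 and 0.165) and stood at 2.35, 1.07, 2.75 and 2.43 with PLG+EACA. The colony stimulating factor gene Csf3 rose 2.67-fold and Lif 4.96-fold.

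Of 17 tested chemokines 10 were higher and none lower, although 4 were lower as deposited. Cxcl9 among the 10 passed the filter only through the PLG+EACA libraries, so it could only be called higher. The neutrophil attractants rose together: Cxcl1 went from 12.6, 9.11, 10.9 and 17.5 to 119, 121, 125 and 165, Cxcl2 from 132, 119, 117 and 152 to 899.8, 939.6, 900.1 and 1158, and Cxcl3 rose 2.69-fold. Ccl5, an attractant of T cells and monocytes, rose from 55.6, 55, 57.7 and 42.7 to 429.6, 400, 440 and 676, and Ccl2, the monocyte attractant, by less (33.5, 25.8, 28.4 and 27.9 to 59.8, 43.3, 62.4 and 111). Ccl22, one of the most abundant chemokines in both groups, did not pass (log2 0.30, adjusted p = 0.113; adjusted p = 0.0139 without PLG+EACA replicate 2).

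The 3 neighbouring Cxcl genes on chromosome 5, Il6 and the feedback inhibitor gene Tnfaip3 carry kB matches close to their starts. The stretches hold the letters GGGNNTTTCC on either strand in capitals and are shown for 5 of the cytokine, chemokine and feedback genes with an upstream match; Il1rn and Nfkb2 hold one too.
Cxcl1 (chr5:90891131-90891208, plus strand): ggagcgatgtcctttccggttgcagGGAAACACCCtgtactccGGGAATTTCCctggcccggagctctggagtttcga
Cxcl2 (chr5:90903777-90903855, plus strand): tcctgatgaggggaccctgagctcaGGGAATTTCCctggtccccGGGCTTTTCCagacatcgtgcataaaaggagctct
Cxcl3 (chr5:90786003-90786062, plus strand): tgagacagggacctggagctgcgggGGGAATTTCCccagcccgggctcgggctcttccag
Il6 (chr5:30013045-30013104, plus strand): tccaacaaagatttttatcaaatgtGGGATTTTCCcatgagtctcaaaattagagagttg
Tnfaip3 (chr10:19015411-19015447, minus strand): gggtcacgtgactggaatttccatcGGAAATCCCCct

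Cxcl1 and Cxcl2 each hold 2 matches, and the same 10 letters in capitals recur in Cxcl1, Cxcl2 and Cxcl3. In Tnfaip3 the match ends close to the start.

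The NF-kB genes rose moderately. Of 17 tested subunits, inhibitors and feedback genes 16 were higher, with a median log2 change of 0.75. Tnfaip3, which encodes the deubiquitinase A20, rose from 27.1, 27.7, 26 and 30.6 to 80.1, 82.2, 78.9 and 89.7. Cflar, an inhibitor of caspase-8, rose 2.81-fold and Nfkb2 2.08-fold. Relb did not pass (log2 0.13, adjusted p = 0.106; adjusted p = 0.0207 without PLG+EACA replicate 1). Replicate 4 was the highest PLG+EACA library for Tnfaip3, for Cflar (82.9 beside at most 75.8 in the others) and for Nfkb2 (154 beside at most 141). For Relb it lay within the range of the others.

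Of 21 AP-1 and immediate early genes 13 were higher and 3 lower. Junb rose 2.16-fold, Maff 2.5-fold and Batf2, an interferon-induced member, 4.7-fold. Batf3, a factor of cross-presenting dendritic cells, fell from 30.6, 36.9, 32.1 and 33.4 to 16, 15.3, 17.3 and 15.7, and Fos fell 1.57-fold. Among regulators of inflammatory mRNA, Zfp36, which speeds the decay of Tnf mRNA, rose 2.09-fold, its relative Zfp36l2 fell 1.53-fold and the RNase gene Zc3h12a did not pass (log2 -0.07).

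Of 11 receptors for chemoattractants 5 were higher and 4 lower, beside 29.2% and 26.2% of all tested genes. Ccrl2, a chemerin-binding receptor, rose from 13.6, 13.2, 13.2 and 15 to 99.6, 99.8, 106 and 108, with little spread (7.29-fold; limma adjusted p = 2.88e-08). Cxcr4, the receptor that holds cells in marrow, fell from 37.9, 34.1, 40.8 and 34.1 to 13.2, 13, 15 and 11. The complement receptor gene C5ar1 rose 1.95-fold.

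Most enzymes that make inflammatory mediators rose. Of 16 tested genes 13 were higher and 2 lower. Ptgs2, which encodes the inducible cyclooxygenase, rose from 65.2, 61.9, 59.6 and 69.5 to 715, 665, 708 and 1023 (11.9-fold), and the prostaglandin E synthase gene Ptges rose 4.03-fold, while the constitutive enzyme Ptgs1 fell 1.75-fold. Acod1, the itaconate enzyme, went from 499, 465, 452 and 491 to 1508, 1455, 1568 and 2085. Nos2, the inducible nitric oxide synthase, rose from 22.5, 22.9, 22.3 and 19.5 to 104, 64.4, 118 and 188, unevenly. Arg1 stayed under 1 in every library and was not tested. Of the prostanoid receptor genes on the lists, Ptger2 fell 1.33-fold and Ptgir 1.45-fold.

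Of 17 inflammasome and cell death genes 12 were higher and 2 lower. Nlrp3 rose from 31.3, 30.1, 30.6 and 33.8 to 102, 101, 99.2 and 131. Mlkl, the executor of necroptosis, rose 4.39-fold, the lipopolysaccharide-binding caspase gene Casp4 2.37-fold and Casp1 2.0-fold. Il18, a substrate of caspase-1, was under 1 in untreated cells and stood at 2.56, 2.94, 1.92 and 7.76 with PLG+EACA, with replicate 4 at 3.13 times the mean of the others. Fas fell 1.4-fold.

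Antigen presentation by class I rose throughout and by class II little. All 20 tested class I genes rose (19 as deposited), with a median log2 change of 0.96. Nlrc5, the transactivator of class I genes, rose from 9.56, 11.6, 8.74 and 8.33 to 44.5, 41.9, 39.8 and 63.7, and the peptide transporter gene Tap1 from 24, 29.2, 21.7 and 23.2 to 89.3, 89, 89.6 and 123. H2-K1 rose 1.56-fold. The nonclassical gene H2-Q4 rose 2.61-fold; it belongs to a family of near copies. Of 11 class II genes 6 were higher and none lower (2 and 2 as deposited), with a median of 0.28. Ciita, their master regulator, stood at 10.9, 11.6, 10.1 and 10 and 9.42, 10.9, 10.8 and 10.7 and did not pass. Of the constitutive proteasome subunits 30 of 34 were higher (12 as deposited), most of them slightly (median 0.31).

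The costimulatory gene Cd40 rose from 20.3, 24, 19.2 and 21.5 to 80.8, 77.2, 88.6 and 129.7, Cd274, which encodes PD-L1, 2.08-fold and Tnfsf4, the OX40 ligand, 3.67-fold, while Cd80 did not pass (log2 0.37; adjusted p = 0.0087 without PLG+EACA replicate 2). Of 22 inhibitory, ITAM-linked and lectin receptors 8 were higher and 8 lower (6 and 13 as deposited), beside 29.2% and 26.2% of all tested genes. Clec4e, the Mincle receptor of mycobacterial glycolipid, rose from 112, 104, 93.4 and 101 to 279, 278, 305 and 310.4. Fcgr1, the high-affinity receptor for IgG, rose 2.34-fold and the low-affinity receptor gene Fcgr3 fell 1.78-fold. Among receptors for apoptotic cells, Mertk rose 2.66-fold and Axl 1.91-fold, and the third member of that kinase family, Tyro3, fell from 3.72, 4.08, 4.92 and 3.72 to 1.74, 1.86, 1.75 and 1.36.

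The genes of plasminogen binding and activation are those that handle the agent added. Of 14 tested genes 8 were higher and 2 lower (6 and 6 as deposited). Serpinb2, the inhibitor PAI-2, rose most, from 157, 128, 149 and 133 to 376, 314, 431 and 670.4. Plaur, the urokinase receptor, rose from 151, 164, 165 and 175 to 255, 232, 260.3 and 355. Plau, which encodes urokinase itself, was 185, 196, 207 and 195 and 229.9, 235, 234 and 204, a log2 change of 0.20 that did not pass when 1 of PLG+EACA replicates 2 and 3 and untreated replicates 1, 2 and 4 was left out (adjusted p = 0.0507 to 0.0653) and whose sign turned as deposited (-0.09).

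Of the plasminogen receptors, Anxa2 rose 1.51-fold. Its partner S100a10 had a log2 change of 0.29 that did not pass when 1 of PLG+EACA replicate 2 and untreated replicates 1, 2, 3 and 4 was left out (adjusted p = 0.0584 to 0.0982) and whose sign turned as deposited (-0.0036). The membrane receptor gene Plgrkt did not pass (22.3, 22.4, 21.5 and 23.3 and 22.7, 21.9, 22.9 and 29.1; adjusted p = 0.347). Tissue plasminogen activator, Plat, stayed under 1 scaled FPKM in every library. The collagenase gene Mmp13 rose from 64.3, 51.4, 57.7 and 56.7 to 183, 169, 179 and 245, and the gelatinase genes Mmp9 and Mmp2 fell 2.35-fold and 1.49-fold. Inhba, the activin A subunit, rose from 196, 213, 203 and 221 to 732, 543, 715 and 845.

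Zinc-binding and antioxidant genes rose, and iron genes moved both ways. Of 14 metal handling genes 8 were higher and 4 lower, a balance that turned as deposited (5 and 6). The metallothionein genes Mt1 and Mt2, which bind zinc, lie side by side, and Mt1 rose from 33.7, 33.5, 35.7 and 29.5 to 136, 139, 154 and 157, with no overlap and little spread. The zinc exporter gene Slc30a1 rose 3.29-fold, the zinc importer Slc39a14 1.79-fold and the iron exporter Slc40a1 2.39-fold, while the importer gene Slc39a10 fell 2.27-fold and the siderophore-binding gene Lcn2 1.81-fold. Of 12 NRF2 genes 11 were higher and none lower, with a median log2 change of 0.98. Hmox1, heme oxygenase 1, rose from 444, 362, 387 and 422 to 1458, 1522, 1566 and 1123, lowest in replicate 4. Srxn1 rose 2.75-fold and Txnrd1 2.37-fold.

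Of 17 tested stress genes 7 were higher and 5 lower, beside 29.2% and 26.2% of all tested genes. As deposited 5 were higher and 8 lower, which turns the balance. Hspa1a and Hspa1b among them passed the filter only through the PLG+EACA libraries, so they could only be called higher. The chaperone gene Hspa5 rose 1.74-fold, whereas Ddit3, which encodes CHOP, and Herpud1 fell 1.73-fold and 1.7-fold. In glucose metabolism, Hk2 rose 1.83-fold and Hif1a 2.04-fold, while the lactate dehydrogenase gene Ldha did not pass (log2 -0.09; adjusted p = 0.0216 without PLG+EACA replicate 4). Nuclear genes of the respiratory chain and citrate cycle were mostly not called (24 of 29), but 27 of them were lower as deposited. Idh1, the cytosolic isocitrate dehydrogenase, fell 1.65-fold.

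Among the lists of at least 5 tested genes, the cell cycle had the largest share of lower genes. Of 28 cell cycle genes 18 were lower and 4 higher, with a median log2 change of -0.45. The mitotic kinase gene Aurkb fell 1.77-fold, Ccna2 1.72-fold and the S-phase regulator E2f1 from 8.11, 8.31, 8.17 and 8.5 to 4.49, 5.15, 5.24 and 4.9. The increases included Cdkn1a, the inhibitor p21 (161, 184, 164 and 158 to 352, 385, 356 and 462), Ccnd1 (2.16-fold) and Mki67 (1.35-fold; not called as deposited, log2 0.15, adjusted p = 0.119).

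Of 26 sterol and fatty acid synthesis genes 12 were lower and 1 higher. The desaturase gene Scd2 fell from 22.8, 23.7, 22.6 and 23.5 to 10.2, 10.8, 8.98 and 12.6, and Fasn and Sqle fell 1.68-fold and 1.62-fold. Insig1 was the 1 gene higher (log2 0.32; not called as deposited, log2 0.03, adjusted p = 0.668).

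Receptors for nucleotides, lipids and prostanoids had 7 lower and 1 higher of 15. The exception was Adora2a, an adenosine receptor, which rose from 14.5, 15.4, 14.5 and 13.5 to 36.9, 35.1, 41.9 and 40.9. Among lineage factors and growth factor receptors 8 of 17 were lower. Csf1r, the M-CSF receptor, fell from 294, 288, 286 and 296 to 194, 198, 204 and 226, the shared GM-CSF receptor chain Csf2rb 1.36-fold and Cebpd 2.06-fold, while Cebpb rose 1.49-fold. Of the aryl hydrocarbon receptor genes, Ahr fell 1.27-fold, Cyp1b1 did not pass (log2 -0.17; adjusted p = 0.015 without PLG+EACA replicate 4) and Tiparp rose 1.57-fold. In the lysosome list Tfeb, a regulator of lysosomal genes, fell from 7.26, 7.95, 7.58 and 7.99 to 3.24, 4.37, 3.75 and 2.65, and Ctsk fell and Ctsc rose (1.93-fold and 1.95-fold).

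**Figure D4:**
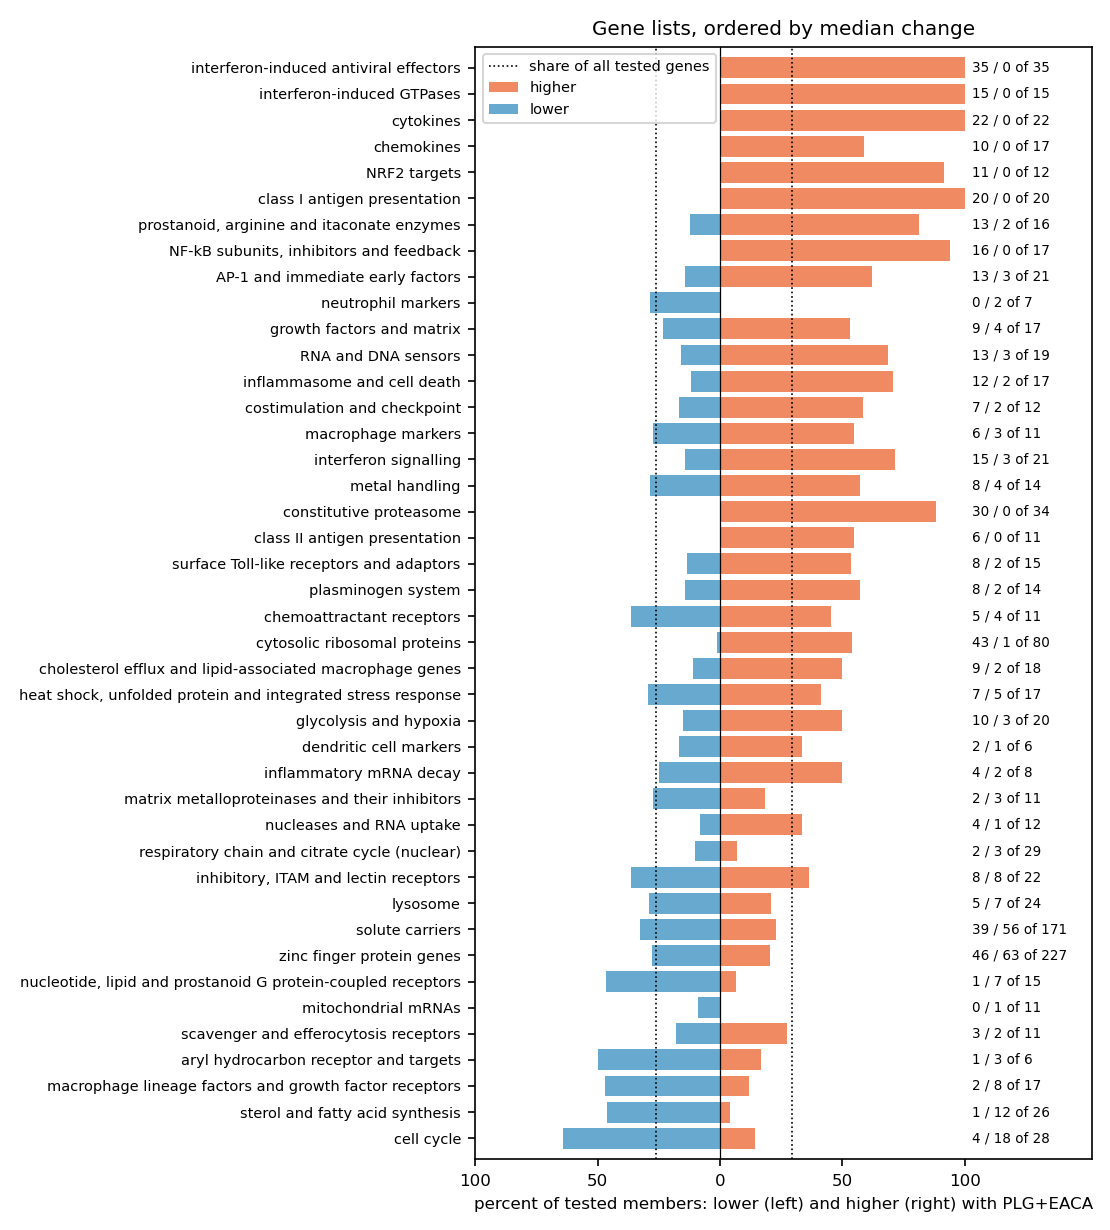
Percent of the tested members of each gene list that were higher (right, orange) or lower (left, blue) with PLG+EACA in limma; numbers give higher / lower of tested, and dotted lines the shares among all tested genes (29.2% and 26.2%). Lists of at least 5 tested genes are ordered by median change. Antiviral effectors, GTPases, cytokines and class I genes were higher throughout, and the cell cycle list has the largest share of lower genes; in 10 of the 29 lists with more members higher than lower, the ribosomal proteins among them, the balance turned in the values as deposited.

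Strongly raised genes often sat next to each other. Along the chromosomes, 36 runs of at least 3 consecutive tested genes were all at least 2-fold higher, and they held 151 of the 603 genes. The longest was the Ifi200 family of DNA-sensor relatives on chromosome 1 (chr1:173468485-174031810), with 11 genes from Ifi206 to Ifi205. The GTPase genes from Irgm1 to Gm12188 on chromosome 11 (chr11:48861968-49135387) made a run of 9, and the Trim12c and Trim30 genes on chromosome 7 (chr7:104338754-104507849) one of 8.

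Runs of 6 were the Ifit genes on chromosome 19, the Oas genes on chromosome 5, the Phf11 genes on chromosome 14, and Cxcl3, Cxcl1, Cxcl2, Ereg and Areg with a noncoding neighbour on chromosome 5. The metallothionein genes Mt3, Mt2 and Mt1 made a run of 3. Many of these neighbours are copies or overlap, so reads of one may be counted in another, and the genes of a run are not independent.

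The PLG+EACA libraries differed among themselves. Of the 155 genes at least 4-fold higher, replicate 4 was the highest PLG+EACA library in 133, with a median of 1.57 times the other libraries. For the 120 genes at least 2-fold lower its median ratio was 0.939. The median SD of log2 values over the 155 genes was 0.344 with PLG+EACA, 0.102 over replicates 1 to 3 and 0.202 in untreated cells.

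The genes at least 4-fold higher with the widest spread among PLG+EACA libraries were Ifit1bl1, Il18, Ms4a4c, Cxcl10, Ifi205 and Nos2. Ifit1bl1 went from 2.09, 2.48, 1.29 and 1.89 in untreated cells to 29.3, 25, 24.9 and 91.2, so replicate 4 was 3.46 times the mean of the others. Ms4a4c went from 0.999, 1.09, 0.892 and 1.14 to 13.4, 13.5, 13.2 and 34.7. In Hspa1a, Hspa1b and Hmox1, by contrast, replicate 4 was the lowest. Replicate 4 had the smallest size factor (0.842), and its mitochondrial share of reads was 0.735%, the highest of its group; the part of either in its values was not tested. Among untreated libraries, replicate 2 was the highest in 93 and replicate 3 the lowest in 82 of the same 155 genes.

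**Figure D5:**
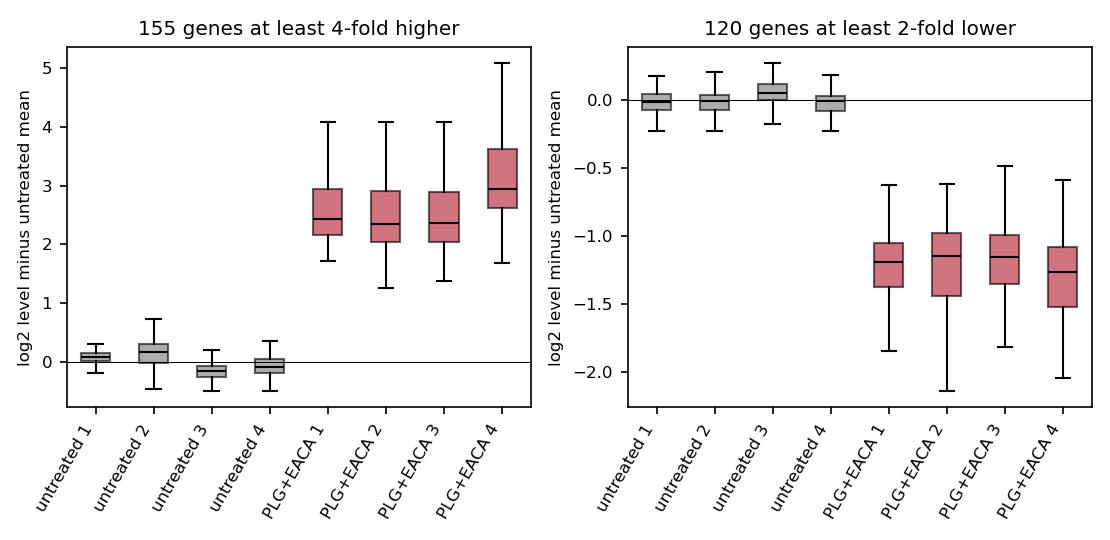
Log2 level of each gene minus its untreated mean, by library, for the 155 genes at least 4-fold higher (left) and the 120 at least 2-fold lower (right); boxes are quartiles over genes with the median line, and whiskers reach 1.5 times the box height. PLG+EACA replicate 4 lies above the other 3 in the left panel, and the 4 PLG+EACA libraries lie close together in the right panel.

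The PLG+EACA+RNase libraries set the leading genes beside a preparation that had been exposed to RNases, RNA carried by plasminogen being the subject of the series. The 3 groups were fitted in 1 model after scaling over the 12 libraries, with 11088 genes tested. With RNase exposure 17.4% of these were lower than with PLG+EACA and 7.8% higher. Of the 10 leading increases 8 were lower with RNase exposure, and of the 10 leading decreases 2 differed (Kcnj2 lower, Cited4 higher). Without PLG+EACA replicate 4 these were 6 and 1, and Isg20 (adjusted p = 0.0791), Ifi205 (0.0544) and Cited4 (0.0767) did not pass. These genes were chosen for their values in the same PLG+EACA libraries, so the choice favours high values there.

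On the scale of the 12 libraries the level of Il27 (mean ± SD, n = 4) was 2.17 ± 0.485 without treatment. It was 88.6 ± 34.3 after PLG+EACA and 37.7 ± 18.3 after the RNase-exposed preparation, a log2 difference of -1.26 ± 0.30 SE between the treatments (limma adjusted p = 0.0129). Rsad2 was 524 ± 134 and 273 ± 87.2 in the 2 treatments, against 19.2 ± 4.64 in untreated cells. Trim30c was 62.8 ± 11.8 and 30.5 ± 11.6. With RNase exposure all of the 10 genes still stood above the untreated libraries in mean.

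Cxcl10 in the 4 PLG+EACA+RNase libraries was 87.9, 40.8, 67.6 and 131, and replicate 4 was again the highest of its group. Its range overlapped none of the PLG+EACA libraries. Oasl1 (log2 -0.44, adjusted p = 0.175) and Il12b (log2 -0.70, adjusted p = 0.0751) did not pass. Cnr2 was 0.795 ± 0.159 and 1.13 ± 0.299 and Nfam1 12.8 ± 2.02 and 11.6 ± 0.486, neither past the threshold. Of the 20 leading genes 10 differed in all, 7 without PLG+EACA replicate 4, 5 without PLG+EACA+RNase replicate 2, 5 without its replicate 3 and 16 without its replicate 4.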

How the data were processed

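The series measured total RNA of 12 mouse macrophage libraries, of which the 8 of the untreated and PLG+EACA groups were compared, grouped by the treatment in their labels. The values are FPKM as deposited by the authors. Per the submitters' processing notes, the tools included cutadapt 4.5, FastQC 0.12.1, STAR 2.7.11a, featureCounts 2.0.6 and DESeq2 1.40.2, with GRCm38.p6 as the build. The role of each tool and whether counting used the strand are not given in the sources used here. The low FPKM values were whole multiples of what 1 read is worth for 100% of the values checked (within 0.1 of a whole read), and the depths come from those multiples. More reads at a gene leave less counting error, and genes near the minimum are the least precise.

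FPKM were scaled by the median of ratios over the 8 libraries, since the values as deposited differed in level between the groups. Genes with at least 1 scaled FPKM in at least 4 libraries were tested with limma 3.58.1 in R 4.3.3 (moderated, with a trend) on log2(scaled FPKM + 0.5), which understates the change of low genes. p-values were adjusted by Benjamini-Hochberg over all 10596 tested genes, with a threshold of 0.05. The code of the fit was run on simulated reads in which a small set of genes had known fold changes. That simulation had few changed genes and no uneven library, so it does not measure the error in these data. The comparison with PLG+EACA+RNase used 1 model over the 12 libraries. The mitochondrial share was compared with an exact permutation test.

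The genes named as leading are the 10 with the largest increase and the 10 with the largest decrease among those past the threshold with groups that do not overlap, a mean of at least 1 scaled FPKM and a named symbol. From each gene list the key genes and the 4 tested members with the smallest p could be named, and in addition up to 8 genes that went from a mean below 1 to at least 5, the 6 most uneven genes and runs of at least 3 neighbours. The lists, members and choices were made with earlier results of these data known, so the counts are descriptions and support nothing independently. Of the listed names, 711 were found by symbol, 923 by a pattern on family names, and 5 were not found. Promoter windows, from 250 bases before to 50 after a start, came from RefSeq on GRCm38.p6 and matched 7936 of the 10596 tested genes by symbol. Both strands were searched for each motif. Alternatives were the values as deposited, pseudocounts of 0.1 and 1, no filter and a mean of at least 5, robust moderation, a replicate block, 1 model over 12 libraries, and each library left out in turn.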

Additional observations from a re-analysis of the deposited data

Results flagged for a closer look

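For the 88 genes whose 8 values are printed, the gap of the highest or lowest library to its nearest neighbour was divided by the range of its group of 4. A ratio above Dixon's critical value for 4 libraries marks one that stands far from the rest, and chance marks about 1 in 20 independent groups. These genes share the same 8 libraries and some were named for their spread, so the count is a description and is not measured against that rate. The ratio was above the critical value in 40 of 176 groups, and in 35 of them the library was PLG+EACA replicate 4. It was the lowest of its group in Plau (0.833) and the highest in the others.

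The ratios for that library were Apol9b (0.903), Ccl5 (0.855), Cmpk2 (0.895), Cxcl1 (0.876), Cxcl10 (0.901), Cxcl2 (0.846), Ddx58 (0.863), Gbp2 (0.863), Ifit1 (0.930), Ifit1bl1 (0.933), Ifit2 (0.846), Ifnb1 (0.877), Iigp1 (0.835), Il12b (0.855), Il15 (0.915), Il1b (0.861), Il27 (0.835), Il6 (0.876), Irf7 (0.903), Irgm1 (0.871), Isg15 (0.867), Isg20 (0.869), Ms4a4c (0.986), Nlrp3 (0.918), Oasl1 (0.841), Plgrkt (0.863), Ptgs2 (0.861), Rsad2 (0.846), Samhd1 (0.903), Socs1 (0.928), Tap1 (0.984), Tlr13 (0.884), Tlr3 (0.851) and Usp18 (0.850). Untreated replicate 4 was far below its group in Nos2 (0.832) and Siglece (0.953). Untreated replicate 3 was far above its group in Hspa1a (0.888), and PLG+EACA replicate 1 far below its group in Ciita (0.879) and far above it in Clec9a (0.882).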

How the results depend on the processing

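With the values as deposited, 1617 genes were higher, 5992 lower and 324 at least 2-fold lower, as the shift of the median gives, and the log2 change turned sign for Tlr4 (-0.26), Ifnar2 (-0.034), Plau (-0.0904), S100a10 (-0.0036) and Plgrkt (-0.187). Genes at least 2-fold lower were 208 with a pseudocount of 0.1 and 71 with 1. With a mean of at least 5 scaled FPKM, where fewer genes were tested, 1347 were lower and 46 at least 2-fold lower. The other settings kept each count within 1.5 times its main value. With each library left out in turn, 2757 to 3042 genes were higher, 2247 to 3004 lower, 470 to 608 at least 2-fold higher and 87 to 132 at least 2-fold lower, and 5 to 16 leading genes differed between the treatments with and without RNase exposure (10 with all libraries). Ccr7 and Cxcl9 are not counted among the named genes here. Of the 165 named genes past the threshold, 0 lost the call with either pseudocount, 4 without a filter and at most 5 with a library left out, and the sign turned in none of these settings. As deposited, 4 lost the call (Tlr7, Ebi3, Mki67 and Insig1) and 3 turned sign (Ifnar2, Plau and S100a10).

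With the replicate number as a block, 2957 genes were higher, 2577 lower, 606 at least 2-fold higher and 121 at least 2-fold lower, 12 leading genes differed with RNase exposure, and Ifnar2 and Ebi3 lost the call. Same-numbered libraries did not deviate together (correlations 0.0485, -0.0147, 0.164 and -0.0531; not every library correlated best with its own number), so the numbers are not taken as pairs. Depth limits genes near 1 FPKM most.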

Other observations

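Of 80 tested genes of cytosolic ribosomal proteins 43 were higher and 1 lower with PLG+EACA after scaling, and as deposited 2 and 25. Of 227 zinc finger protein genes 46 were higher and 63 lower, and of 171 solute carrier genes 39 and 56. Long noncoding RNA genes had 104 higher and 51 lower of 347, and processed pseudogenes 52 and 5 of 225. Over all tested genes 29.2% were higher and 26.2% lower, and no difference of these sets from those shares was tested.

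Markers of other cells moved both ways at low or middle levels. Of 6 tested dendritic cell markers 2 were higher and 1 lower (1 and 3 as deposited). Zbtb46, a transcription factor of classical dendritic cells, was higher (3.16, 3.2, 3.09 and 2.99 to 5.02, 5.04, 5.77 and 4.6). So was the chemoattractant receptor gene Ccr7 (log2 0.62, limma adjusted p = 0.029), with overlapping groups. Ccr7 did not pass as deposited (adjusted p = 0.183) or in every fit with a library left out (adjusted p up to 0.0781). Clec9a, a receptor of cross-presenting cells, was lower (4.84, 3.75, 4.61 and 4.64 to 2.6, 2.35, 2.33 and 2.37). The platelet chemokine gene Pf4 fell from 342, 225, 321 and 289 to 148, 118, 196 and 155. Pdgfrb, a receptor of stromal cells, rose from 1.17, 1.14, 0.981 and 1.41 to 4.87, 4.0, 4.1 and 3.9, and Kdr, a receptor of endothelium, from 2.54, 2.29, 2.39 and 1.76 to 6.05, 4.55, 6.1 and 8.25, while the 8 stroma and endothelium markers together summed to 9.58 to 18.2 scaled FPKM in untreated libraries and 12.5 to 28.8 with PLG+EACA.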
